A study of Mus musculus with 4 samples.

Results

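Iqcn, Tex19.1 and Trim69 are mouse genes known mainly for their expression in testis, and all 3 were read here in tumor cells. They were taken by symbol from the 53379 Ensembl gene identifiers in the count files (ENSMUSG00000110622, ENSMUSG00000039329 and ENSMUSG00000033368). They had been picked because their counts differed between responder and non-responder tumors in these same libraries. Their values in that contrast are therefore given as a description, with no test.

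The cells came from MC38-GFP+ tumors, a mouse colon adenocarcinoma line marked with green fluorescent protein, grown under the skin of C57BL/6 mice after inoculation of 50000 cells. Every mouse received anti-PD-1 antibody, which blocks an inhibitory receptor on T cells, in a dose described as sub-optimal: 100 µg on days 12, 15, 18 and 22. Malignant cells were sorted and bulk libraries were made from their polyadenylated RNA, 2 libraries from tumors labelled responder and 2 from tumors labelled non-responder. The labels give neither the age and sex of the mice nor an untreated group, and they do not state that replicates were different animals, so any p-value reflects a spread between libraries that may be technical only. All results come from 1 transplanted cell line.

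Genes of this kind are active in the germ line and are held silent in most other tissues, in mouse largely through methylation of CpG-rich promoters and through a repressive complex built on E2F6, MGA and PCGF6. Tumor cells often express some of them, and they are then called cancer-testis genes. Iqcn encodes a protein with IQ motifs that is needed for normal sperm in mouse. Tex19.1 encodes a mammal-specific germ-cell and placental protein that binds the ubiquitin ligase UBR2 and helps restrain retrotransposons. Trim69 encodes a ubiquitin ligase of the tripartite motif family that was first described in mouse testis, and human TRIM69 is induced by interferon and restricts some viruses.

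The promoter windows of the 3 genes are shown to describe their start regions, which differ in CpG content. That the 3 genes were high in the same libraries follows from how they were picked. Each window runs from 250 bases before to 50 bases after a RefSeq start on GRCm38.p6, plus strand, 5′ to 3′. Capitals mark a match to 1 of 6 searched motifs. These were the E2F core GCGGGA, the E-box CACGTG, the cAMP response element TGACGTCA, the AP-1 element TGANTCA, the gamma-activated element TTCNNNGAA and the core of the interferon-stimulated element GAAANNGAA, each on both strands. The set was chosen with the sequences in view.
Iqcn, chr8:70701775-70702074: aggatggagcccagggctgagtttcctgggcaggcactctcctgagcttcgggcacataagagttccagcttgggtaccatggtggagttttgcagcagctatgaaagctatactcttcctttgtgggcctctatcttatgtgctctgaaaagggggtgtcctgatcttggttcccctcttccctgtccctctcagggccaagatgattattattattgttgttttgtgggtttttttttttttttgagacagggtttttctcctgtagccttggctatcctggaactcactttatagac
Tex19.1, chr11:121145893-121146192: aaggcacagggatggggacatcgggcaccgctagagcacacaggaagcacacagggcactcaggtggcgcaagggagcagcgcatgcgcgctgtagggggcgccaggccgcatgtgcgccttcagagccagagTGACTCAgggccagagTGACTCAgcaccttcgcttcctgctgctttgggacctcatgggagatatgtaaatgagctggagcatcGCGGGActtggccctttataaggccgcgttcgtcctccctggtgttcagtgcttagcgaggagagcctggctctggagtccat
Trim69, chr2:122160458-122160757: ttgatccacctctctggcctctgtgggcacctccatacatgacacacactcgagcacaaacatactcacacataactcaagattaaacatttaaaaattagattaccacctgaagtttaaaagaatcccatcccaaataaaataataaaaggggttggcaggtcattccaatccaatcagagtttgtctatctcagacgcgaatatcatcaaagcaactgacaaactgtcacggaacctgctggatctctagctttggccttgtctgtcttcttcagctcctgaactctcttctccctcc

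Tex19.1 had the only matches among these 3 windows. It held an E2F core whose first base lies 33 bases before the start, and AP-1 elements whose first bases lie 117 and 101 bases before it, and none of the matches overlapped. Over all 32851 RefSeq promoter windows of this length, 20.0% held an E2F core, 7.81% an AP-1 element and 0.460% an AP-1 element at 2 or more places. The share with 2 or more places was computed for the AP-1 element only, the motif that Tex19.1 held at 2 places. An E-box was in 7.15% of windows, a cAMP response element in 1.79%, a gamma-activated element in 8.30% and an interferon-stimulated element in 8.56%. The absence of a match in the Iqcn and Trim69 windows says only that these letters are not in those 300 bases.

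The windows differed in CpG content. Tex19.1 held 16 CpG dinucleotides, more than 67.0% of all windows, where the median was 7. The Trim69 window shown held 4, more than 31.4% of windows, and Iqcn held 1, more than 5.43%. The 2 RefSeq starts of Trim69 lie 848 bases apart. The window of the second held 8 CpG dinucleotides, more than 51.35% of windows, and also held no motif match. The RefSeq start of Iqcn lies 1432 bases upstream of the gene start used for counting, and 1409 bases beyond the end of Jund. No methylation or binding was measured in these libraries.

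All 3 genes passed the low-count filter. Total counts were 18447041 to 21754063 per library, and the filter corresponded to 0.475 CPM (reads of a gene relative to library size), which each gene exceeded in all 4 libraries. Of all genes, 13792 passed it. Markers of colon epithelium were nearly absent from these adenocarcinoma cells: 1 of 10, Cdh1, was high enough to test, and the 10 summed to between 1.06 and 3.41 CPM in a library. Of 10 markers of testicular Sertoli and Leydig cells 3 were tested, and Rhox8, Cyp17a1 and Hsd3b1 had no read in any library. These 10 summed to between 257 and 331 CPM in a library, nearly all of it from Sox9, at 252 to 326 CPM.

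Iqcn was all but silent in non-responder tumor cells and readily detected in responder tumor cells. It had 303 and 208 counts in responder replicates 1 and 2, against 11 and 27 counts in non-responder replicates 1 and 2. On the TMM-normalised scale this was 15.0 and 10.9 CPM in responder libraries, against 0.53 and 1.21 CPM in non-responder libraries. Both responder libraries were high and both non-responder libraries low, and the lower responder value was 8.99 times the higher non-responder value. The exact 95% Poisson interval of the smallest count, 11, runs from 5.49 to 19.7, and that of the smaller responder count, 208, from 181 to 238. These intervals cover counting error only. The fitted log2 fold change was 3.88 (SE 0.43), or 14.7-fold, and 2 of the 13792 genes, Iqcn among them, had a log2 fold change at least as high.

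The 14.7-fold figure leaned on the non-responder libraries, which differed from each other 2.28-fold. It was 24.1-fold with non-responder replicate 2 left out and 10.7-fold with non-responder replicate 1 left out. Per length of exon, Iqcn had 3.28 and 2.38 RPKM (reads per kilobase of exon, on the CPM scale) in responder libraries, against 0.12 and 0.26 RPKM in non-responder libraries. Its level thus stood above 39.1% and 32.7% of tested genes in responder replicates 1 and 2, and above 2.73% and 5.68% in non-responder replicates 1 and 2. Even where it was high, Iqcn remained below the median gene.

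Tex19.1 was detected in every library and showed the smallest fold difference of the 3 with the closest responder replicates. It had 170 and 168 counts in responder libraries, against 41 and 80 counts in non-responder libraries. This was 8.43 and 8.79 CPM in responder libraries, against 1.98 and 3.59 CPM in non-responder libraries. The groups did not overlap, and the lower responder value was 2.35 times the higher non-responder value. The log2 fold change was 1.62 (SE 0.36), or 3.08-fold, a value reached by 42 of the tested genes, Tex19.1 included. It was 2.11 with non-responder replicate 2 left out and 1.27 with non-responder replicate 1 left out. Its level per length was 4.50 and 4.70 RPKM in responder libraries, against 1.06 and 1.92 RPKM in non-responder libraries.

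Tex19.2, the neighboring paralog of Tex19.1, was all but unread. It had 0 and 0 counts in responder libraries, against 0 and 1 count in non-responder libraries. The transcripts of the paralogs align over 585 bases at 76.8% identity and over 418 bases at 89.0%, with shorter stretches of 140 bases at 94.3% and 116 bases at 94.0%. No other gene in the GENCODE M21 transcripts, a GRCm38 set later than the one used for counting, matched Iqcn, Tex19.1 or Trim69 over at least 50 bases at 95% identity or more. 

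Trim69 was higher in responder tumor cells, with a wide spread in both groups. It had 487 and 151 counts in responder replicates 1 and 2, against 34 and 97 counts in non-responder replicates 1 and 2. This was 24.1 and 7.90 CPM in responder libraries, against 1.64 and 4.35 CPM in non-responder libraries. Responder replicate 1 stood 3.05-fold above responder replicate 2, while the lower responder value was 1.82 times the higher non-responder value. The mean was 16.02 ± 11.5 CPM in responder and 2.996 ± 1.91 CPM in non-responder libraries (SD, n = 2 each). The log2 fold change was 2.41 (SE 0.77), or 5.32-fold, and 14 tested genes including Trim69 reached it. Without responder replicate 1 the log2 fold change was 1.40, or 2.63-fold. It was 3.01 without responder replicate 2, and leaving out a non-responder library gave 1.88 for replicate 1 and 3.28 for replicate 2.

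Per length, Trim69 was the most abundant of the 3 in responder replicate 1, with 12.8 RPKM, which stood above 70.6% of tested genes there. In responder replicate 2 it had 4.19 RPKM, close to the 4.70 RPKM of Tex19.1 and above the 2.38 RPKM of Iqcn. In the non-responder libraries Trim69 had 0.87 and 2.30 RPKM, near the values of Tex19.1, and Iqcn was the lowest of the 3 in each of the 4 libraries. Within the non-responder group all 3 genes were higher in replicate 2 than in replicate 1, by 2.28-fold for Iqcn, 1.81-fold for Tex19.1 and 2.65-fold for Trim69. Within the responder group they did not share an order, with ratios of replicate 1 to replicate 2 of 1.38, 0.96 and 3.05.

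**Figure D1:**
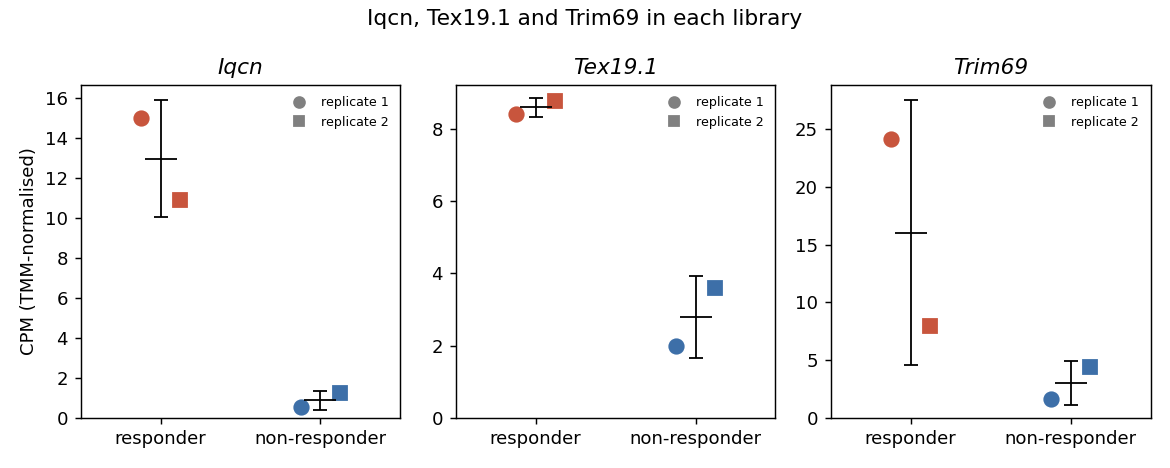
TMM-normalised CPM (vertical axes, linear from 0, a separate scale for each gene) of Iqcn, Tex19.1 and Trim69 in each library; points are libraries, the horizontal bars are group means and the error bars SD with n = 2. Both responder points lie above both non-responder points for each gene, and Trim69 in responder replicate 1, at 24.1 CPM, stands far above responder replicate 2 at 7.90 CPM.

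With edgeR's quasi-likelihood test, 0 of 13792 genes (0%) passed a Benjamini-Hochberg adjusted p of 0.05. The unadjusted p was under 0.05 for 856 genes (6.21%), and DESeq2 called 62 (0.450%). Both responder values lay above both non-responder values for 2588 genes (18.8%) and below both for 2447 (17.7%). The 3 genes are in the first of these sets, and since they were chosen on this contrast nothing is read from that.

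The genes around Iqcn, Tex19.1 and Trim69 lay on both sides of no difference. Within 250 kb on either side of the 3 genes lie 86 annotated genes, 49 of which passed the filter, with 28 higher and 21 lower in responder libraries. Their median log2 fold change was 0.07, beside -0.01 over all tested genes, of which 48.9% had a value above 0. None of the 49 passed edgeR's test over all genes. At an unadjusted p under 0.05 there were 2, beside 6.21% of all tested genes. Both responder values were above both non-responder values for 6 of the 49 neighbors, beside 18.8% of all tested genes, and below both for 7, beside 17.7%. No annotated gene shared exonic bases with any of the 3.

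Iqcn lies on the plus strand of chromosome 8 (mm10, 70703457 to 70717650), with 4584 exonic bases in 4 exons. Of 29 tested neighbors 16 were higher and 13 lower (median 0.10). Jund, an AP-1 subunit gene that ends 2840 bases upstream on the same strand, had 62.1 and 187 CPM in responder libraries, against 60.8 and 67.2 CPM in non-responder libraries. Jund was high in responder replicate 2 alone, the responder library with less Iqcn, and its log2 fold change was 0.96 (SE 0.57, adjusted p = 0.851). On the 3′ side, Gm3336 begins after 892 bases with 9 and 1 counts in responder libraries, against 0 and 1 in non-responder libraries. The phosphodiesterase gene Pde4c, named after its values were seen, begins after 6069 bases with 7 and 1 counts in responder libraries, against 1 and 2 in non-responder libraries. The predicted gene Gm11175, on the other strand within the span of Jund, had 12 and 17 counts in responder libraries, against 11 and 15 in non-responder libraries, a log2 fold change of 0.30 (SE 0.53). Of the next tested genes, the RNA-processing gene Lsm4 had a log2 fold change of 0.10 (SE 0.17), the vesicle-trafficking GTPase gene Rab3a 0.11 (SE 0.24) and Mpv17l2 0.14 (SE 0.21), all with overlapping groups. The lysosomal reductase gene Ifi30 had 51.0 and 58.1 CPM in responder libraries, against 58.5 and 65.3 CPM in non-responder libraries, a log2 fold change of -0.18 (SE 0.17) without overlap.

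The highest log2 fold change among the 29 tested neighbors of Iqcn was that of Slc5a5, the sodium-iodide symporter gene, 165 kb downstream on the other strand. It was singled out after its values were seen. Slc5a5 had 44 and 33 counts in responder libraries, against 8 and 11 in non-responder libraries. This was 2.18 and 1.73 CPM in responder libraries, against 0.39 and 0.49 CPM in non-responder libraries, a log2 fold change of 2.13 (SE 0.48) with an adjusted p of 0.455 by edgeR over all genes.

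Tex19.1 lies on the plus strand of chromosome 11 (mm10, 121146143 to 121148319), with 1872 exonic bases in 2 exons. Within 250 kb 24 genes are annotated and 11 were tested, 6 higher and 5 lower (median 0.03). Uts2r, the urotensin receptor gene and its nearest neighbor at 11951 bases, had 3 and 1 counts in responder libraries, against 0 and 0 in non-responder libraries. Ogfod3, 29.3 kb away, had 7.24 and 9.21 CPM in responder libraries, against 5.75 and 8.61 CPM in non-responder libraries, a log2 fold change of 0.19 (SE 0.30). Cybc1 at 0.03 (SE 0.23) and the casein kinase gene Csnk1d at 0.03 (SE 0.19) were close to 0. Sectm1a, the nearest tested gene upstream, was at -0.64 (SE 0.79) and Hexdc at 0.34 (SE 0.44), both with overlapping groups. Slc16a3, the lactate exporter gene 185 kb upstream, had the highest log2 fold change here, 0.45 (SE 0.22, adjusted p = 0.796). Its values were 605 and 509 CPM in responder libraries, against 350 and 462 CPM in non-responder libraries.

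Trim69 lies on the plus strand of chromosome 2 (mm10, 122160700 to 122179027), with 1888 exonic bases in 8 exons, 7616 bases beyond the end of B2m, the light chain gene of MHC class I, on the same strand. B2m was at 6410 and 6537 RPKM in responder libraries, against 5427 and 6150 RPKM in non-responder libraries, so Trim69 sits beside a gene of far higher level. B2m varied little, with a log2 fold change of 0.16 (SE 0.25, adjusted p = 0.938), and it was slightly higher in responder replicate 2, the responder library where Trim69 was lower. Patl2, a gene of the other strand whose span contains Trim69, had 0 and 0 counts in responder libraries, against 0 and 2 in non-responder libraries, and counting was strand-specific. Beyond Trim69 on its own strand Terb2, a meiotic telomere gene named after its values were seen, had 2 and 0 counts in responder libraries, against 0 and 0 in non-responder libraries. Of 9 tested neighbors 6 were higher and 3 lower (median 0.07). Spg11 had a log2 fold change of -0.06 (SE 0.17) and Duoxa1 of -0.04 (SE 0.74). Eif3j1 was at 0.18 (SE 0.24) and Duox1 at 0.07 (SE 0.61), and the groups overlapped for each of these genes. Sord, the sorbitol dehydrogenase gene 55.7 kb away, had 6.74 and 6.81 CPM in responder libraries, against 3.43 and 4.48 CPM in non-responder libraries, a log2 fold change of 0.77 (SE 0.31, adjusted p = 0.766 by edgeR).

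**Figure D2:**
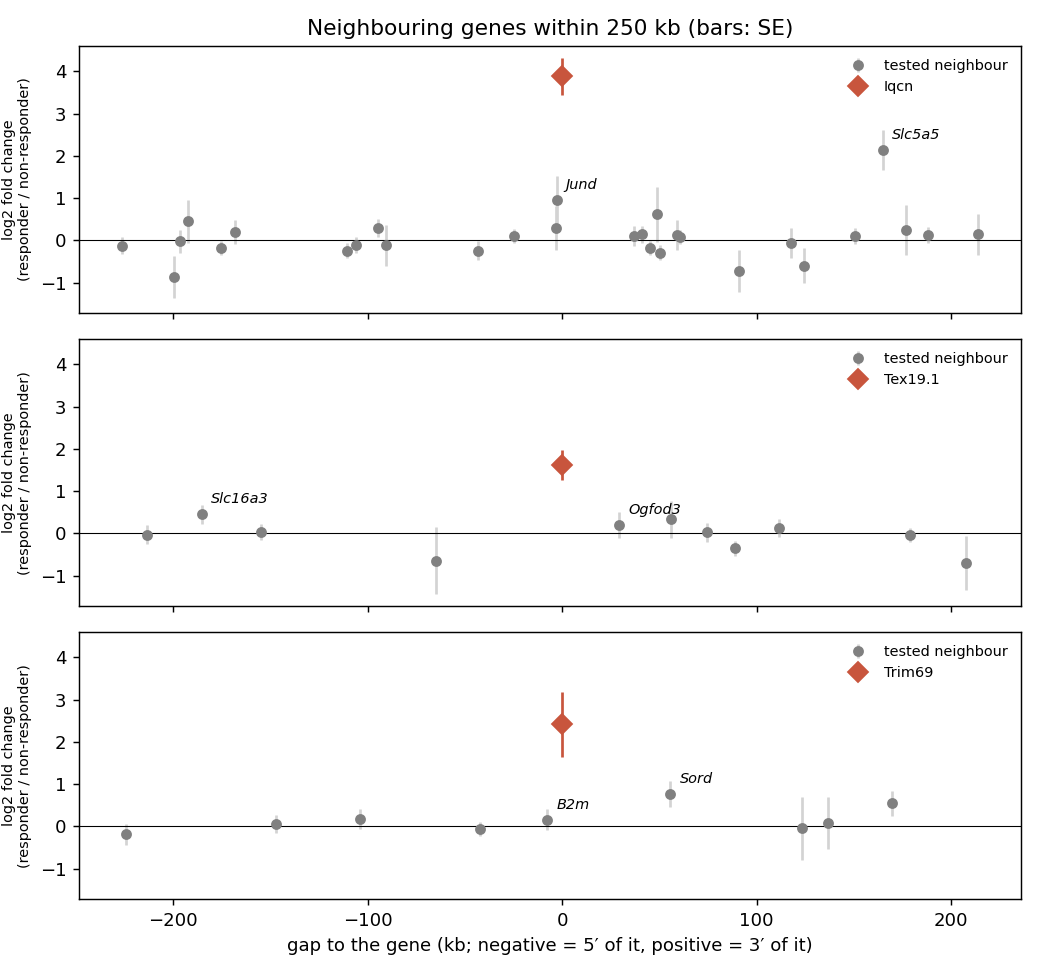
Log2 fold change of responder over non-responder (vertical axis, with SE bars) for each tested gene within 250 kb of Iqcn, Tex19.1 and Trim69 against the gap to that gene in kb (horizontal axis); diamonds are the 3 genes themselves. Most neighbors lie near 0, with Slc5a5 at 2.13 the highest.

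Other germline genes lay on both sides of no difference as well. Of 45 germline genes known to be silenced by DNA methylation or the PCGF6 complex in somatic cells, 12 passed the filter and 7 had no read in any library. Of the 12, 6 were higher and 6 lower (median log2 fold change -0.01, or 0.01 with library size alone as the scaling), with 0 at an adjusted p under 0.05 and 1, the synaptonemal complex gene Sycp2, at an unadjusted p under 0.05, beside 6.21% of all tested genes. Sycp2 had 0.40 and 0.21 CPM in responder libraries, against 0.63 and 1.30 CPM in non-responder libraries, opposite in direction to Tex19.1. The germ-cell RNA-binding protein gene Dnd1 had 0.94 and 1.10 CPM in responder libraries, against 0.29 and 0.63 CPM in non-responder libraries (log2 fold change 1.13, SE 0.56). The groups overlapped for the 4 most abundant members. Tdrd9, a helicase gene of the piRNA pathway, had 13.0 and 8.01 CPM in responder libraries, against 6.13 and 8.43 CPM in non-responder libraries (log2 fold change 0.53, SE 0.32). The testis bromodomain gene Brdt had 7.14 and 7.75 CPM in responder libraries, against 7.58 and 10.4 CPM in non-responder libraries (log2 fold change -0.27, SE 0.27). The meiotic hotspot gene Prdm9 had a log2 fold change of 0.08 (SE 0.29) and the PIWI gene Piwil4 of -0.10 (SE 0.39).

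Most genes of later sperm development were unread or under the low-count filter, as were most identifiers in the series. Of 54 spermatid and sperm genes, 22 had no read and 9 passed the filter. Over all 53379 identifiers, 29612 had a read and 13792 passed the filter. Of the 9 tested sperm genes, 5 were higher and 4 lower (median 0.03), none of them at an unadjusted p under 0.05 by edgeR. The sperm calcium channel subunit gene Catsperg1 had 1.49 and 1.26 CPM in responder libraries, against 0.63 and 0.85 CPM in non-responder libraries (log2 fold change 0.88, SE 0.47). Odf2, which also serves centrosomes in other cells, had a log2 fold change of 0.05 (SE 0.17) and the flagellar gene Cfap43 of 0.03 (SE 0.23). The median turned to -0.45 without responder replicate 2 and was 0.35 without responder replicate 1.

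Of 48 X-linked and other cancer-testis genes found, 22 had no read and 12 passed the filter, 10 higher and 2 lower (median 0.24). None passed at an unadjusted p under 0.05 by edgeR, and 5 had both responder values above both non-responder values, beside 18.8% of all tested genes. The list mixes silent Mage and Rhox genes with genes that any dividing cell uses. The homeobox gene Rhox5 was strongly expressed and level, with 257 and 272 CPM in responder libraries, against 289 and 238 CPM in non-responder libraries. The abscission gene Cep55 had 77.5 and 96.0 CPM in responder libraries, against 72.8 and 64.8 CPM in non-responder libraries (log2 fold change 0.33, SE 0.18), and Spag1, a dynein assembly factor gene, had a log2 fold change of 0.41 (SE 0.20). With at least 5 CPM in 2 libraries required, the median over 9 genes was 0.07.

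A list of 29 genes known to act on the silencing of germline promoters, which also holds the Tet genes whose enzymes remove DNA methylation, was read in every library. All but Tet1 passed the filter. Of the 28 tested, 17 were higher and 11 lower (median 0.03), with 0 at an adjusted p under 0.05. Both responder values lay above both non-responder values for 10 of them, beside 18.8% of all tested genes, and below both for 3, beside 17.7%. Uhrf1, which recruits the maintenance methyltransferase to replicated DNA, had 113 and 127 CPM in responder libraries, against 80.2 and 85.8 CPM in non-responder libraries. Its log2 fold change was 0.53 (SE 0.17, adjusted p = 0.695). The maintenance methyltransferase gene Dnmt1 had 402 and 434 CPM in responder libraries, against 344 and 329 CPM in non-responder libraries (log2 fold change 0.31, SE 0.19). The de novo enzyme gene Dnmt3b had 9.67 and 8.85 CPM in responder libraries, against 6.13 and 6.37 CPM in non-responder libraries (log2 fold change 0.57, SE 0.26). Atf7ip, a partner of the histone methyltransferase SETDB1, went the other way, with 115 and 98.0 CPM in responder libraries, against 192 and 131 CPM in non-responder libraries (log2 fold change -0.60, SE 0.23). The corepressor gene Trim28 had a log2 fold change of 0.17 (SE 0.19). E2f6, named after its values were seen, was low, with 0.84 and 0.89 CPM in responder libraries, against 0.82 and 1.88 CPM in non-responder libraries (log2 fold change -0.64, SE 0.54).

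None of the tested relatives and partners of the 3 proteins passed an adjusted p of 0.05 by edgeR, and no other gene of the series did. Among genes of the IQ motif family and its binding partners, 13 of 25 genes found were tested, 4 higher and 9 lower (median -0.05). Iqgap2, a scaffold gene, had 0.10 and 0.47 CPM in responder libraries, against 0.92 and 1.84 CPM in non-responder libraries (log2 fold change -2.27, SE 0.74, adjusted p = 0.724). Its relative Iqgap3 had 63.9 and 73.8 CPM in responder libraries, against 46.1 and 59.4 CPM in non-responder libraries (log2 fold change 0.38, SE 0.19, adjusted p = 0.796). Iqck had 1.24 and 1.94 CPM in responder libraries, against 1.06 and 0.94 CPM in non-responder libraries (log2 fold change 0.66, SE 0.46, adjusted p = 0.858). The groups did not overlap for any of these 3, with Iqgap2 lower and Iqgap3 and Iqck higher in responder libraries. Among the ubiquitin ligases of the UBR family and their E2 partners, 2 of 12 were higher and 10 lower (median -0.05). Ubr2, which encodes the partner of the Tex19.1 protein and was named after its values were seen, had 177 and 156 CPM in responder libraries, against 160 and 155 CPM in non-responder libraries.

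In the tripartite motif family, 43 of 66 genes were tested without Trim69, 30 higher and 13 lower (median 0.09), with 0 at an adjusted p under 0.05. At an unadjusted p under 0.05 there were 2 of the 43, beside 6.21% of all tested genes: Trim2, lower, and Trim30c, higher. Trim2 had 41.0 and 32.5 CPM in responder libraries, against 57.9 and 47.9 CPM in non-responder libraries (log2 fold change -0.53, SE 0.19). Trim30c, which has close copies that could share reads, had 0.74 and 0.84 CPM in responder libraries, against 0.19 and 0.36 CPM in non-responder libraries (log2 fold change 1.49, SE 0.59). The interferon-inducible Trim25 had 210 and 182 CPM in responder libraries, against 175 and 194 CPM in non-responder libraries.

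**Figure D3:**
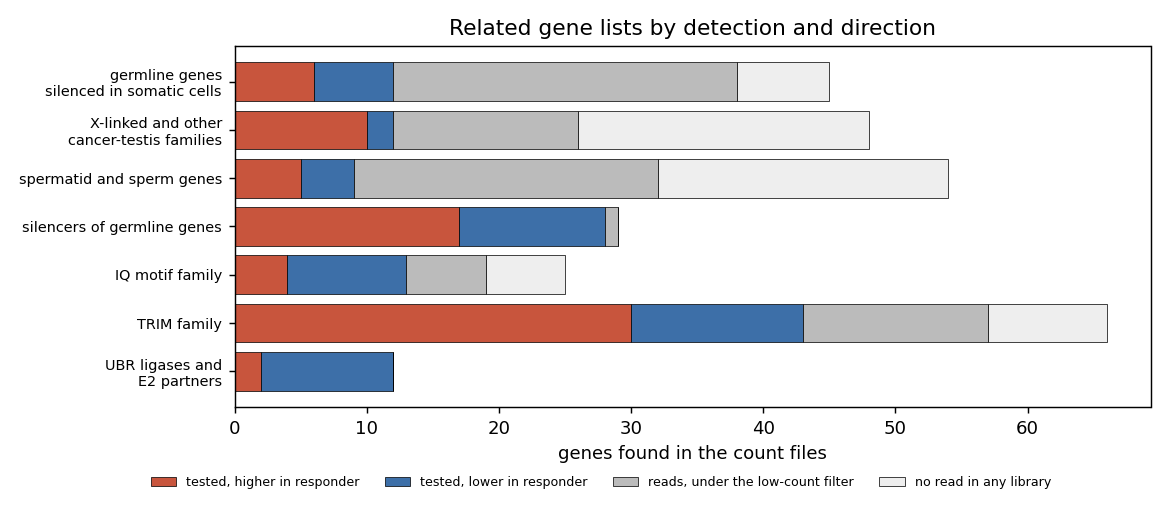
Number of genes found in the count files (horizontal axis) for 7 related lists, divided into tested genes whose log2 fold change was above or below 0 in responder libraries, genes with reads that were under the filter, and genes with no read; direction is of the estimate and 0 genes passed an adjusted p of 0.05. Of 54 spermatid and sperm genes 9 were tested, against 28 of 29 silencer genes.

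Summed markers of leukocytes, macrophages and fibroblasts were lower in responder libraries, where Iqcn, Tex19.1 and Trim69 were higher. None of these markers passed an adjusted p of 0.05 by edgeR, and no other gene of the series did. The 12 pan-leukocyte markers all had a log2 fold change below 0, and the groups did not overlap for 5. They summed to 23.4 and 65.5 CPM in responder replicates 1 and 2, against 66.0 and 161 CPM in non-responder replicates 1 and 2, and Tyrobp had 0 counts in responder replicate 1. The 10 macrophage and monocyte markers also had values below 0, with 0 at an unadjusted p under 0.05 and 2 without overlap. Their sums were 13.3 and 81.8 CPM in responder libraries, against 82.9 and 229 CPM in non-responder libraries, so that responder replicate 2 and non-responder replicate 1 were close, and Cd68 was at -0.03 (SE 0.24). Of 11 fibroblast markers 10 were tested, all with values below 0, 8 at an unadjusted p under 0.05 and 9 without overlap. They summed to 8502 and 7409 CPM in responder libraries, against 9978 and 16278 CPM in non-responder libraries. Col3a1 alone made up most of each sum, with 6897 and 5792 CPM in responder libraries, against 7598 and 13391 CPM in non-responder libraries. Over all tested genes, 6.21% had an unadjusted p under 0.05 by edgeR, and 17.7% were lower in responder libraries without overlap.

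Endothelial markers were mixed. Of 7 endothelial markers 3 were tested: Pecam1 had a log2 fold change of -1.27 (SE 0.33), Cdh5 of 0.31 (SE 0.50) and Egfl7 of 0.71 (SE 0.44). Both responder values lay below both non-responder values for Pecam1 and above both for Egfl7. The groups overlapped for Cdh5. The 7 summed to 14.4 and 18.0 CPM in responder libraries, against 25.7 and 29.5 CPM in non-responder libraries. Of 10 T and NK cell markers 2 were tested, both with values below 0, and the sums were 0.45 and 1.47 CPM in responder libraries, against 1.01 and 3.32 CPM in non-responder libraries. In bulk RNA, fewer cells of a type and less RNA per cell cannot be told apart. Nor can marker reads from host cells be told apart from reads of the same genes in the sorted malignant cells. This holds for the abundant fibroblast markers in particular. Within the non-responder group the library with the higher sums, replicate 2, also had more of all 3 genes, whereas responder replicate 1 had the least leukocyte transcript and the most Trim69. The part of host cells in the values of the 3 genes was not tested.

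The genes with profiles most like those of the 3 were found by the Euclidean distance between log2(CPM + 0.5) values over the 4 libraries, each centered on its own mean. With 4 libraries this likeness is a description, and a like profile does not show a link between genes. For Iqcn the nearest was the keratin gene Krt16, at a distance of 1.28, followed by Trim69 at 1.44. Krt16 had 4.86 and 5.39 CPM in responder libraries, against 0.29 and 1.44 CPM in non-responder libraries. Prl2c2, Rnf225 and the interferon-inducible GTPase gene Tgtp1 came next, at 1.58 to 1.75; Prl2c2 and Tgtp1 have close copies that could share reads. These genes lay far from Iqcn: each had a smaller log2 fold change, 1.65 to 2.70, and a higher level in non-responder replicate 2 relative to its own mean.

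Tex19.1 had much closer companions. Polg2, the accessory subunit gene of the mitochondrial DNA polymerase, lay at a distance of 0.09, with 23.4 and 24.1 CPM in responder libraries, against 6.38 and 9.91 CPM in non-responder libraries. Vmn1r43, Pabpc1l, Wincr1 and Rmi2, a genome stability factor gene, followed at 0.24 to 0.35. The distance from Tex19.1 to Trim69 was 1.35, and 2316 tested genes were nearer to Tex19.1 than Trim69 was.

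For Trim69 the nearest was the ciliary gene Cfap45, at 0.72, with 4.71 and 1.73 CPM in responder libraries, against 0.00 and 1.48 CPM in non-responder libraries. The integrin gene Itgb7 and the annexin gene Anxa8 followed, both at 0.87, then the metalloproteinase inhibitor gene Timp3 at 0.95 and Tgtp1 at 0.98. Tgtp1, near to both Iqcn and Trim69, had 29.2 and 17.9 CPM in responder libraries, against 2.32 and 12.6 CPM in non-responder libraries. All 5, like Trim69, had a higher level in responder replicate 1 than in responder replicate 2.

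**Figure D4:**
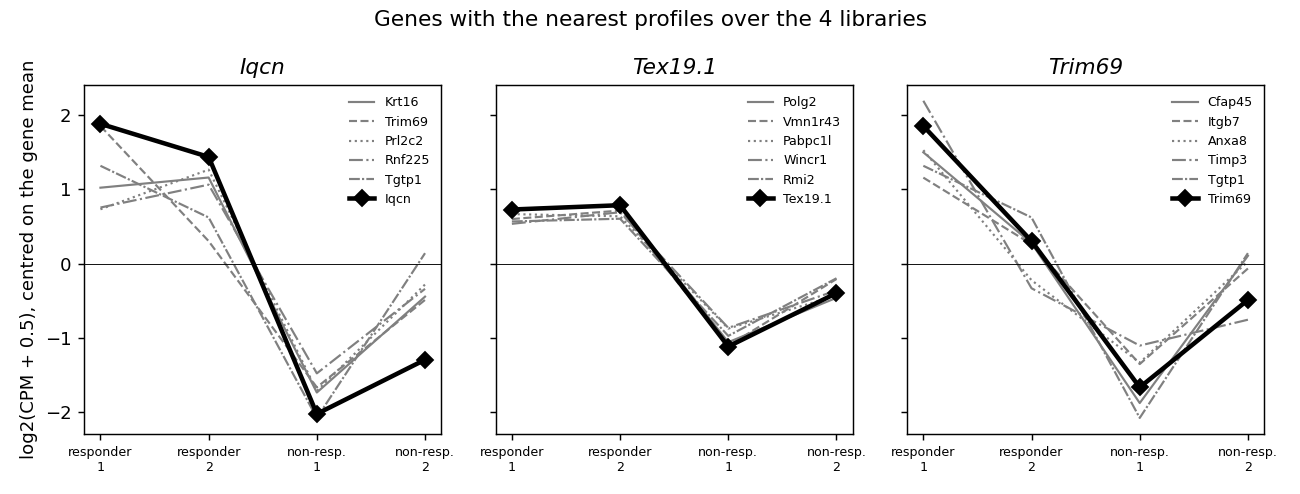
Log2(CPM + 0.5), centered on each gene's mean (vertical axis), in the 4 libraries (horizontal axis) for Iqcn, Tex19.1 and Trim69 (black) and the 5 genes nearest to each (gray); lines only join the values of a gene. The profiles around Tex19.1 lie within 0.35 of it in distance, while the nearest to Iqcn is at 1.28.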

How the data were processed

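The deposited values are raw read counts per Ensembl gene, 1 file per library and not pooled. Per the submitters' processing notes, reads were aligned with STAR to mm10 (GRCm38), with no version given in the sources used here. Per the file headers, the authors counted with featureCounts 1.6.1, reverse-stranded (setting 2), on Ensembl release 91, without asking for multi-mapping reads. Of 53379 identifiers 53274 matched a symbol, and where identifiers shared a symbol the one with most reads was used.

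Genes were tested with edgeR 4.0.16 under R 4.3.3, after filterByExpr (minimum count 10) and TMM scaling (factors 0.952 to 1.036). The test was the robust quasi-likelihood one, with the group as the only term and Benjamini-Hochberg adjustment over all tested genes. The standard error is the size of the log2 fold change over the square root of F. CPM and RPKM were computed from the counts, TMM-normalised, with the deposited exonic length. The steps were tested on simulated data. No 2 libraries were near-identical (chi-square per degree of freedom 22.5 to 66.3). Transcript copies were searched with blastn 2.17.0.

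The 3 genes and the lists were chosen with earlier results of these data known. Named neighbors were the 3 nearest tested genes on each side and the nearest annotated gene. Named list genes were the 4 of highest mean CPM and the 3 of smallest p, and named companions the 5 nearest profiles, with predicted genes left out. Some genes the rule takes are only counted. Alternatives were RLE factors, library size alone, DESeq2 1.42.0, other filters, the replicate number as a block, other windows and each library left out.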

Additional observations from a re-analysis of the deposited data

How the results depend on the processing

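Iqcn, Tex19.1 and Trim69 were higher in responder libraries under every alternative run. With 1 library left out, the log2 fold change ran from 3.42 to 4.59 for Iqcn, 1.27 to 2.11 for Tex19.1 and 1.40 to 3.28 for Trim69. A library left alone in its group was taken to vary as much as those of the other group. RLE factors, library size alone, DESeq2 and other filters moved them by less than the replicate spread. The number of genes called was 62 with DESeq2, 212 with no low-count filter, 41 to 516 with 1 library left out, and 856 at an unadjusted p under 0.05, against 0 in the edgeR fit, in RLE, in library size alone and in the stricter filter. With the replicate number as a block 32 genes were called and the log2 fold changes were 3.89, 1.67 and 2.29. Same-numbered libraries deviated together (r = 0.37 across 13792 genes, which are not independent), but nothing in the labels says that a number marks a shared source.

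The median log2 fold change of all neighbors was 0.07, 0.10 within 100 kb, 0.07 within 1000 kb and -0.06 to 0.12 with 1 library left out. It ran from -0.12 to 0.18 for Iqcn, -0.06 to 0.24 for Tex19.1 and -0.14 to 0.34 for Trim69. Over all 7 lists it was 0.02, 0.053 with library size alone and 0.025 to 0.050 with 1 library left out. By list, leaving out 1 library gave -0.185 to 0.235 for silenced germline genes, 0.13 to 0.28 for cancer-testis genes, -0.45 to 0.35 for sperm genes, 0.032 to 0.091 for silencers, -0.104 to 0.042 for IQ motif genes, 0.0089 to 0.24 for tripartite motif genes and -0.17 to 0.05 for UBR genes and partners. The cancer-testis median was 0.071 under the stricter filter, and the silencer median 0.063 with library size alone. The causes of these shifts were not tested. The 11 to 97 counts of the 3 genes in the non-responder libraries limit the precision of their folds.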
